A study of Homo sapiens with 24 samples.

Results

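The genes described here are 31 genes of sterol and fatty acid synthesis, read through the open chromatin around them in T47D, an established line of human breast cancer cells that are luminal and carry the estrogen receptor. Members were taken by name and divided by role into 7 genes of the mevalonate steps, 11 of squalene and sterol synthesis, 6 regulators and sterol transport genes, and 7 of fatty acid synthesis. A peak was assigned to a gene when its midpoint lay within 50 kb of the gene's interval on genome build hg38. This gave 472 of the 189403 peaks in the deposited table, of which 411 had enough counts to be tested, out of 156745 tested in all. The assay was ATAC-seq. The transposase Tn5 inserts adapters where DNA is open, so the values count reads or fragments in open chromatin and give no level of any transcript. There were 24 libraries, 4 in each of 6 groups.

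All libraries came from the T47D line, with no added gene or deletion named in the labels. In 4 groups, 500000 cells stood in complete medium, RPMI with fetal bovine serum, for 1 day, and for the last step received 0.1% DMSO (vehicle) or 100 nM fulvestrant, raloxifene or tamoxifen for 1 h. In the other 2 groups, 330000 cells were kept for 3 days in starved medium, which lacked phenol red and held charcoal-stripped serum, before 1 h of 0.1% DMSO or 1 nM beta estradiol. Charcoal removes lipids from serum along with steroids. Days in culture, cells seeded, phenol red and the serum all differ between complete and starved medium, so their parts in a difference between media cannot be told apart. Fulvestrant is a steroidal antagonist that leads to loss of the receptor, and raloxifene and tamoxifen are non-steroidal receptor modulators.

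Cholesterol is made from acetyl-CoA through mevalonate, squalene and lanosterol, and fatty acids from malonyl-CoA on fatty acid synthase. The transcription factors SREBP-1 and SREBP-2, the products of SREBF1 and SREBF2, switch on both routes. They are held in the endoplasmic reticulum by SCAP and the INSIG proteins while sterols are plentiful, and are carried to the Golgi and cut free when sterols fall. In breast cancer cells lipid synthesis supplies membranes for growth, and estrogens and serum lipids are both known to act on it.

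Libraries varied in depth. Total counts were 434598 in fulvestrant replicate 4 and 2422981 in starved vehicle replicate 3, and ran from 5448411 to 12140005 in the other 22. The labels do not say that replicates were grown separately, and p-values then rest on a spread between libraries that may be technical. Complete vehicle replicates 3 and 4 carry fulvestrant in their treatment label and DMSO in title and description, and were grouped by title. Replicates 1 and 2 and replicates 3 and 4 were also read as separate sets. Over all groups, the median correlation of deviations from the group means was small, 0.0419 for libraries of different number within a set and -0.0485 between sets, and main counts are given within each set too. The strongest peaks at the 7 luminal markers, such as KRT8, GATA3 and ESR1, averaged 26.6 to 51.9 CPM (counts per 1000000 after scaling), and KRT5 and KRT14 of basal cells, and LEP, ALB, APOA2 and CYP7A1 of fat and liver cells, had no peak. Some other non-luminal markers did have open peaks nearby, among them ADIPOQ of fat cells with 31.8 CPM.

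Promoters come first, because they carry the known switches of this pathway and turned out to be where accessibility differed least. Each sequence below is the 250 bases that end just before a RefSeq transcript start (GRCh38.p14, gene strand, 5′ to 3′). Capitals mark the sterol response element TCACNCCAC, the E-box CACGTG and the CCAAT box (ATTGG on the other strand). SREBF2 (chr22:41832855-41833104, plus strand) is shown because its window was the only member window searched to hold an exact match to TCACNCCAC. ELOVL5 (chr6:53348951-53349200, minus strand) is shown because its promoter peak was the only one to differ between media. SC5D (chr11:121292521-121292770, plus strand) and HMGCS1 (chr5:43313413-43313662, minus strand) are shown because distal or intragenic peaks of these genes differed strongly while the promoters did not pass the test.
SREBF2: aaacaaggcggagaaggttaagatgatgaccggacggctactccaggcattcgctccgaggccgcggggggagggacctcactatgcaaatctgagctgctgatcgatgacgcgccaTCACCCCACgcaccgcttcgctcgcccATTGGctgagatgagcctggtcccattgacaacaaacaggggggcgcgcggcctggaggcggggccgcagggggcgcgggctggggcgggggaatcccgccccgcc
ELOVL5: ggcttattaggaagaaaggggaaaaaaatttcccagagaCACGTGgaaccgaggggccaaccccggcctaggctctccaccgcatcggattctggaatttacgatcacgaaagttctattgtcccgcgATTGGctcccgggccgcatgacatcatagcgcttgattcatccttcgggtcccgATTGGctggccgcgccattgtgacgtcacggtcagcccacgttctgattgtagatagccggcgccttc
SC5D: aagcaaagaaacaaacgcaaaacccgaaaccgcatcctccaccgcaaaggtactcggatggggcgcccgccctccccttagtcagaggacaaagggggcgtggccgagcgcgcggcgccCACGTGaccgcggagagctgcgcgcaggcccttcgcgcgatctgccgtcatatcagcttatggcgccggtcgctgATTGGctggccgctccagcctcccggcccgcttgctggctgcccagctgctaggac
HMGCS1: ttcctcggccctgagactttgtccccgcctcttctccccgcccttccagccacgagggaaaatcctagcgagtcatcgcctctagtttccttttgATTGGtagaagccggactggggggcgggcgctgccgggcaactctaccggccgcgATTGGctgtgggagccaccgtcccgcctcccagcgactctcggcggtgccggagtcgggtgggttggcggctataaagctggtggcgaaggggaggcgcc
In the 300-base windows (250 before to 50 after the start) of the 27 members that the table holds, motifs were searched on both strands. Only exact matches were counted (N is any base), so looser forms of the sterol response element would be missed. TCACNCCAC was found in 1 member, in 1 window, against 1.13% of 22198 protein-coding windows, at position -133 of SREBF2 and inside its peak. CACGTG was found in 5 members (ELOVL5, SCAP, INSIG1, SC5D and LSS) and CCAAT in 20, and the GC box GGGCGG, left in lower case above, in 25. Some members have several windows, 36 in all. Counted by window, CACGTG was in 6 of the 36 against 8.34% of all windows, CCAAT in 23 against 34.7%, and GGGCGG in 31 against 56.3%. The palindromic estrogen response element (GGTCA, any 3 bases, TGACC) was in no member window and in 0.036% of all windows. A match is a description of letters and not a measured binding site, and in the sequences printed the capitalised motifs do not overlap.

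Member promoters were among the most open sites near these genes, and hardly differed between groups. Of the 27 members with a window, 25 had a peak over it, averaging 7.3 CPM at ELOVL6, an elongase of saturated fatty acids, to 104 CPM at HMGCS1, with a median of 44.1 CPM. The windows of SREBF1 and FADS2 held no peak, and ACAT2, FDFT1, SQLE and FASN are named only. At HMGCS1, which encodes cytosolic HMG-CoA synthase, the promoter peak stood at 108 ± 2.7 CPM in complete vehicle (SD, n = 4) and 100 CPM in starved vehicle, a difference of 0.08 on the log2 scale (SE 0.0842, edgeR adjusted p = 0.583). The SREBF2 promoter averaged 33.0 ± 5.64 and 32.5 CPM, and that of INSIG1, a sterol-sensing SREBP anchor, 28.4 ± 0.795 and 29.3 CPM.

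Only the ELOVL5 promoter passed the test between media. ELOVL5 encodes the elongase of polyunsaturated fatty acids. Its promoter peak (chr6:53348924-53349229) measured 18.7, 16.8, 20.5 and 17.7 CPM in complete vehicle and 27.2, 24.7, 19.2 and 24.8 CPM in starved vehicle. The lowest starved library lay below the highest complete one, so the groups overlapped. The fitted log2 fold change, complete minus starved, was -0.42 (SE 0.131, edgeR adjusted p = 0.0142), and adjusted p rose to 0.425 with replicates 3 and 4 only. Leaving out complete vehicle replicate 2 (-0.38, edgeR adjusted p = 0.0575) or starved vehicle replicate 1 (-0.37, adjusted p = 0.0826), or both vehicle libraries of conflicting label (-0.47, adjusted p = 0.0648), also ended the call. Over the 25 promoter peaks the difference ran from -0.42 to 0.21 with a median of -0.0099. Across the whole table, 3.05% of peaks over any RefSeq promoter window were higher and 2.36% lower in complete medium, against 8.35% and 10.6% of the others. Near the members, 1 of 65 peaks over any promoter window was higher and 1 lower, and 42 and 22 of the other 346.

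**Figure D1:**
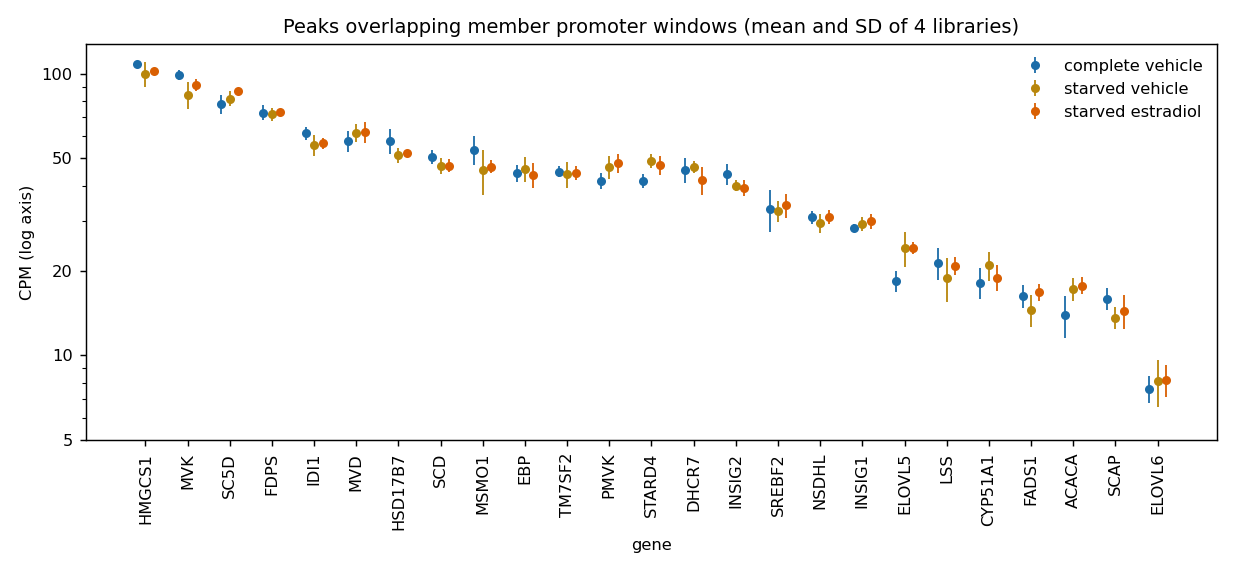
Mean accessibility (CPM, log axis) of the peak over each member promoter window, with SD over 4 libraries, in complete vehicle, starved vehicle and starved estradiol. Genes run from HMGCS1, the most open, to ELOVL6, and the 3 groups lie close together at every gene, with ELOVL5 the only one past the test (18.4 against 24 CPM).

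Between complete and starved medium the question was how the removal of hormones and lipids from serum is reflected at these genes. Peaks away from promoters differed in both directions, with sites inside HMGCS1, ELOVL5 and SREBF2 and upstream of INSIG2 more open in starved cells, and sites at SC5D, MVK, SCAP and SREBF1 more open in complete medium. Of 411 peaks near members, 43 (10.5%) were higher and 23 (5.6%) lower in complete vehicle (edgeR, adjusted p under 0.05). Among all 156745 peaks tested, 7.93% were higher and 9.91% lower, and either way 66 peaks (16.1%) near members stood against 17.8% of all. At an unadjusted p under 0.05 there were 120 (29.2%), against 29.5% of all. The median log2 fold change was 0.0814 near members and 0.0206 over all peaks. At least 1 peak was higher near 20 of the 31 genes and lower near 13, both near 7, and neither near ACAT2, FDPS, MSMO1, INSIG1 and STARD4. The same share was not counted over all genes, so these counts do not set the members apart from other genes.

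Those counts depended on the libraries. Within replicates 1 and 2 there were 37 higher (9.09%) and 22 lower (5.41%), against 5.62% and 7.19% of all peaks. Replicates 3 and 4 gave 8 (1.9%) and 7 (1.66%), against 2.67% and 3.9%, so calls fell over all peaks too. Without the 2 vehicle libraries of conflicting label there were 24 and 11, and the share of all peaks in that setting is not given here. DESeq2 called 21 higher and 19 lower, against 5.44% and 7.77% of all peaks. Most rises lay nearer to another gene than to the member. Of 190 peaks whose nearest protein-coding gene was a member, 13 were higher and 17 lower. Of the 221 nearest to some other gene, 30 were higher and 6 lower. Within 10 kb of the members the counts were 14 and 15 of 192.

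**Figure D2:**
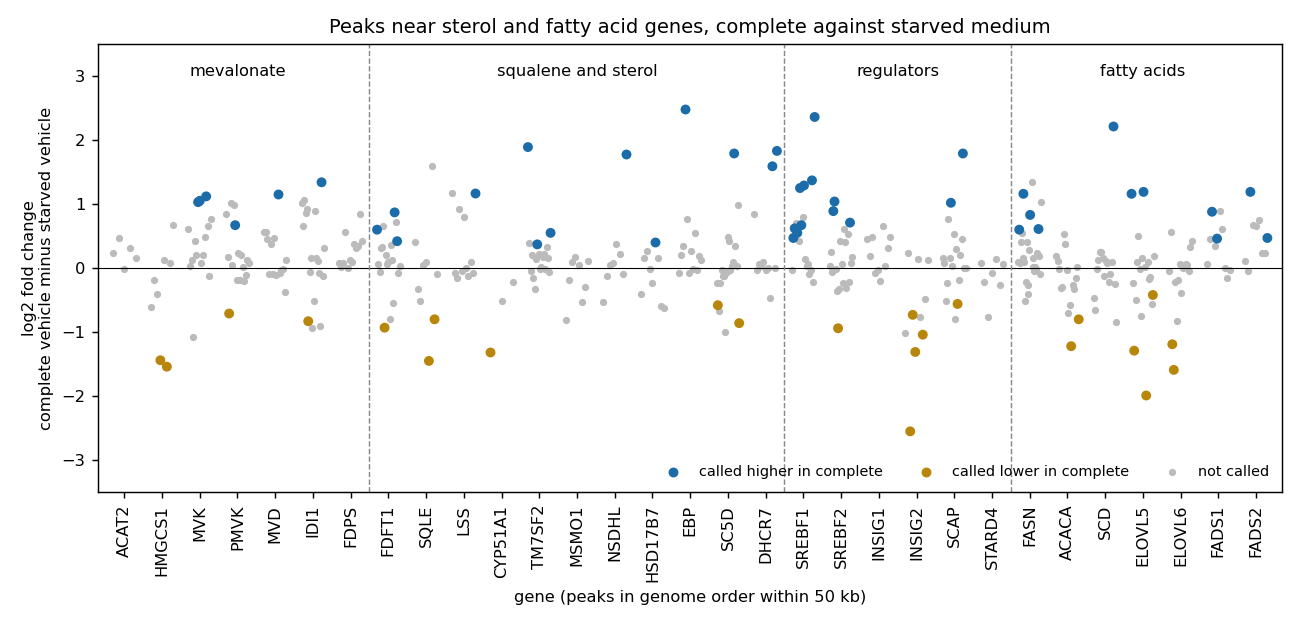
Log2 fold change, complete vehicle minus starved vehicle, of every tested peak within 50 kb of each member gene, in genome order within a gene and grouped by role. Coloured points passed an adjusted p under 0.05, 43 of them higher and 23 lower in complete medium, and most genes have called peaks in 1 direction only. A peak shared by FADS1 and FADS2 is drawn once.

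Of 88 tested peaks near the mevalonate genes, complete medium had 6 higher (6.82%) and 4 lower (4.55%), against 7.93% and 9.91% of all peaks. HMGCS1, which makes HMG-CoA, had 8 tested peaks, 2 of them lower and none higher. The stronger (chr5:43309785-43310043, inside the gene) measured 4.11, 4.03, 6.79 and 4.96 CPM in complete vehicle. In starved vehicle it measured 13.6, 18.4, 7.62 and 14.7 CPM. Every starved library was above every complete one, although starved replicate 3, the shallow library, came close. The fitted difference was -1.54 on the log2 scale (SE 0.191, edgeR adjusted p = 1.27e-09), with -1.96 in replicates 1 and 2 and -1.15 in replicates 3 and 4. A second peak inside HMGCS1 (chr5:43294286-43294525), chosen after its values were seen, was lower too, complete vehicle standing at 0.928 ± 0.338 CPM and starved vehicle 2.55 ± 0.6 CPM (log2 fold change -1.44, edgeR adjusted p = 0.00402). It was not called with replicates 3 and 4 only (-1.30, edgeR adjusted p = 0.196) or without the vehicle libraries of conflicting label (-1.28, adjusted p = 0.0632).

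MVK encodes mevalonate kinase, which adds the first phosphate to mevalonate. A peak inside it (chr12:109582698-109582967) gave 8.00, 6.63, 9.16 and 5.84 CPM in complete vehicle and 3.69, 2.86, 4.01 and 4.10 CPM in starved vehicle. The groups did not overlap, and the log2 fold change was 1.05 (SE 0.232, edgeR adjusted p = 0.000424). A neighbouring peak (chr12:109581977-109582198) averaged 4.92 ± 1.05 and 2.37 ± 0.461 CPM, a difference of 1.03 on the log2 scale (SE 0.276). With replicates 3 and 4 only, both kept their sign and lost the call, at 0.91 (edgeR adjusted p = 0.0758) and 0.64 (adjusted p = 0.35). PMVK, the next kinase, held a peak (chr1:154932222-154932454) whose mean was 20.2 ± 0.71 CPM in complete vehicle and 12.7 ± 2.21 CPM in the starved one, 0.67 higher on the log2 scale (SE 0.138). Replicates 3 and 4 alone gave 0.42 for that peak (edgeR adjusted p = 0.257).

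IDI1, the isopentenyl diphosphate isomerase gene, had 1 peak higher and 1 lower. MVD, which decarboxylates mevalonate diphosphate, had 1 higher, 9.86 kb upstream and nearest to SNAI3. FDPS, which builds farnesyl diphosphate, and ACAT2, the cytosolic acetyl-CoA acetyltransferase gene, had none in 12 and 5 tested peaks.

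Near the squalene and sterol genes, complete medium had 13 higher (10.2%) and 6 lower (4.72%) of 127 tested peaks, against 7.93% and 9.91% of all peaks. SC5D, the sterol C5-desaturase of late cholesterol synthesis, held the peak with the clearest pattern over all 6 groups. It lies 13 kb downstream of the gene (chr11:121326204-121326556), and SC5D is its nearest protein-coding gene. In starved vehicle it measured 1.84, 2.11, 3.21 and 3.09 CPM. In complete vehicle it measured 7.68, 6.76, 9.98 and 10.2 CPM. All complete libraries were above all starved ones, by more than 2-fold between the nearest of them, and the fit gave 1.79 on the log2 scale (SE 0.237, edgeR adjusted p = 8.05e-09). It was 1.88 in replicates 1 and 2 and 1.67 in replicates 3 and 4, called in both.

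In the same neighbourhood, SC5D also had 2 peaks that were more open in starved cells. They lie 41.7 kb upstream (11.9 CPM in complete vehicle, 17.1 CPM in the starved one, log2 fold change -0.58) and 44.8 kb downstream (5.09 and 8.02 CPM, -0.86), and were chosen after their values were seen. Neither was called with replicates 3 and 4 only (-0.55 and -0.67, edgeR adjusted p = 0.146 and 0.22), nor the first without the vehicle libraries of conflicting label (-0.43, adjusted p = 0.149). SQLE encodes squalene epoxidase, a rate-limiting oxygenase of the pathway. A peak 7.74 kb beyond its interval and inside WASHC5 (chr8:125029910-125030134) measured 1.84, 2.47, 1.34 and 3.65 CPM in complete vehicle and 6.92, 7.58, 4.81 and 4.55 CPM in starved vehicle. The groups were separate, with a difference of -1.45 on the log2 scale (SE 0.268, edgeR adjusted p = 2.52e-05), and -1.02 (adjusted p = 0.108) with replicates 3 and 4 only.

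FDFT1, squalene synthase, commits farnesyl diphosphate to sterols. Inside it, a peak (chr8:11800429-11800654) measured 2.70, 2.47, 3.09 and 3.07 CPM in complete vehicle and 6.92, 5.84, 3.21 and 4.46 CPM in starved vehicle, a difference of -0.93 on the log2 scale (SE 0.244, edgeR adjusted p = 0.00331). The groups were separate by a small margin, and with replicates 3 and 4 only the value was -0.47 (edgeR adjusted p = 0.537). The 3 higher peaks near FDFT1 include one in CTSB, the cathepsin B gene, 14.7 kb away (chr8:11853899-11854102), at 5.80 ± 0.725 against 3.44 ± 0.935 CPM (log2 fold change 0.87, SE 0.258). That peak lost its call with DESeq2 (adjusted p = 0.0569) and within either set of replicates (edgeR adjusted p = 0.0791 and 0.136), without the vehicle libraries of conflicting label, and without starved vehicle replicate 4 (0.78, adjusted p = 0.0628).

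Other rises here were smaller in level and lay in or next to other genes. They included 3 near TM7SF2, a sterol C14-reductase gene, 2 near DHCR7, which makes the last double-bond reduction to cholesterol, and 1 each near LSS (lanosterol synthase), NSDHL, HSD17B7 and EBP. The EBP peak, 34.2 kb upstream of this sterol isomerase gene and 1.25 kb from FTSJ1 (chrX:48487439-48487799), measured 4.22, 4.81, 3.4 and 2.63 CPM in complete vehicle and 0.922, 0.249, 0 and 0.910 CPM in starved vehicle. The groups did not overlap, and the log2 fold change was 2.49 (SE 0.433, edgeR adjusted p = 9.64e-06). It was chosen after its values were seen. CYP51A1, lanosterol demethylase, had 3 tested peaks in all, of which 1, inside AKAP9, was lower. MSMO1, a sterol-4-methyl oxidase gene, had none in 8.

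**Figure D3:**
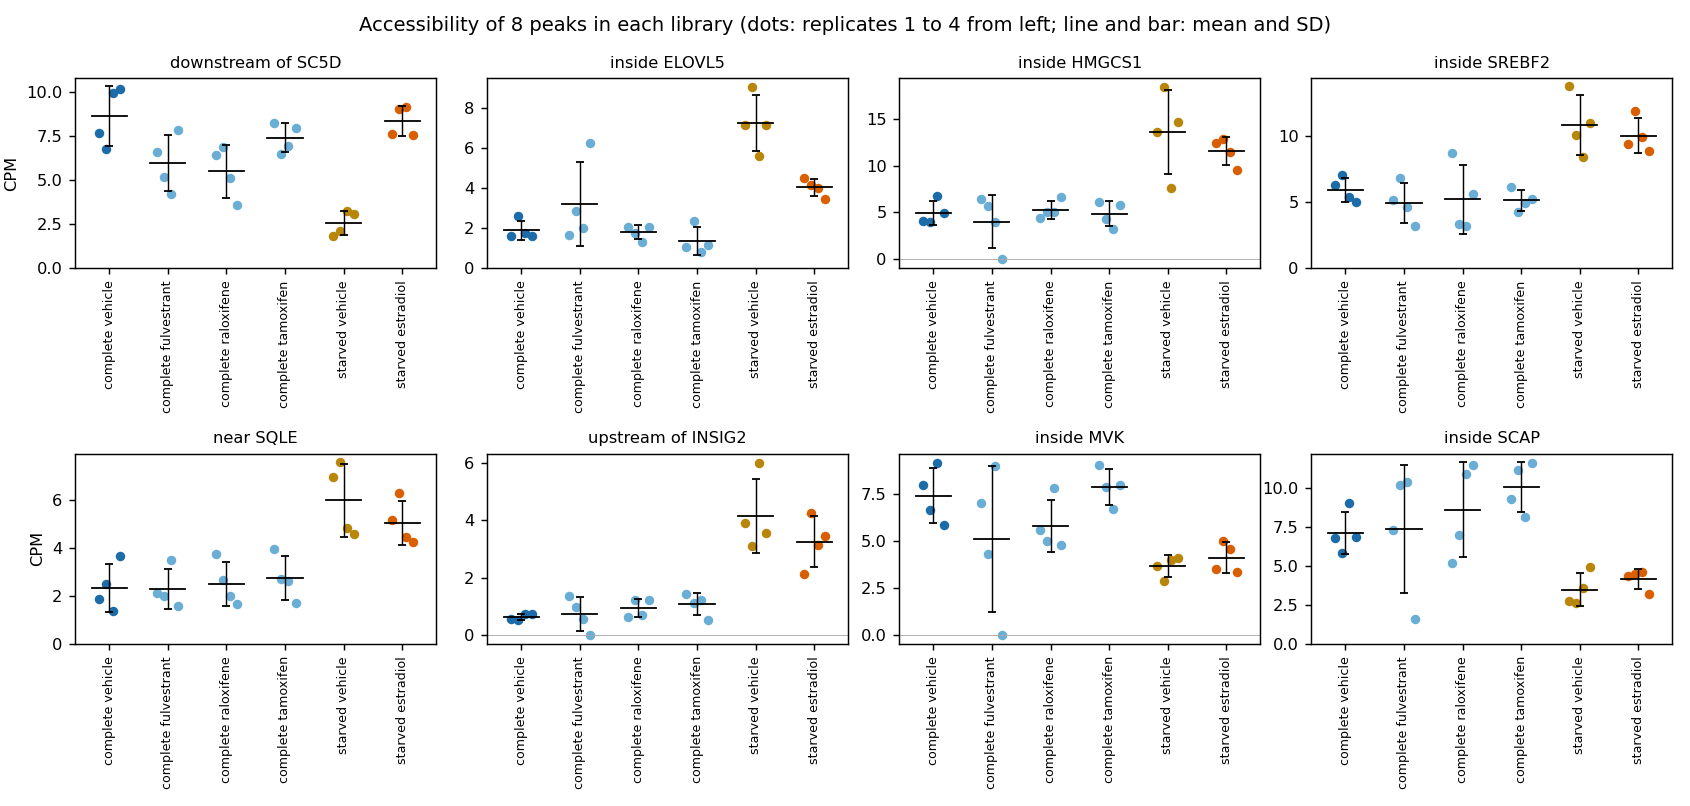
Accessibility (CPM) of 8 peaks in all 24 libraries, with dots for replicates 1 to 4 from left and the mean and SD of each group. Peaks inside ELOVL5, HMGCS1 and SREBF2, near SQLE and upstream of INSIG2 are high in starved vehicle, peaks at SC5D, MVK and SCAP are high in complete vehicle, and at SC5D the starved estradiol libraries (7.59 to 9.18 CPM) lie with the complete vehicle ones.

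Near the regulators, 13 of 83 peaks were higher (15.7%) and 6 lower (7.23%), against 7.93% and 9.91% of all peaks. Differences between the roles were not tested. SREBF1 accounted for 8 of the 13. Of these, 2 lie inside SREBF1, 4 are nearest to RAI1 and 2 to TOM1L2. The stronger rise inside the gene (chr17:17819758-17819958) measured 5.30, 5.46, 4.73 and 5.84 CPM in complete vehicle and 1.15, 2.24, 4.81 and 2.28 CPM in starved vehicle. Starved replicate 3 reached the complete range and the other 3 did not, and the log2 fold change was 1.29 (SE 0.273, edgeR adjusted p = 0.000242). The other (chr17:17811805-17812020) averaged 14.2 ± 2.53 and 9.99 ± 3.78 CPM with overlapping groups, 0.67 on the log2 scale (SE 0.181), and was not called without starved vehicle replicate 1 (0.50, edgeR adjusted p = 0.0652) or with DESeq2 (adjusted p = 0.0515) or without the vehicle libraries of conflicting label. Both were chosen after their values were seen, and neither was called with replicates 3 and 4 only (0.89 and 0.54, edgeR adjusted p = 0.152 and 0.153).

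SREBF2 had 3 peaks higher and 1 lower. The lower one, inside the gene (chr22:41836585-41836881), measured 6.27, 7.02, 5.35 and 4.96 CPM in complete vehicle and 13.8, 10.1, 8.42 and 11 CPM in starved vehicle. No library of one group reached the other, and the log2 fold change was -0.94 (SE 0.195, edgeR adjusted p = 0.000191), -0.85 and -1.03 within the sets of replicates and called in both. The promoter of SREBF2, with the TCACNCCAC match printed above, differed by -0.0099 (SE 0.113, edgeR adjusted p = 0.969). Of the higher peaks, one in CENPM, a centromere protein gene 32.9 kb downstream (chr22:41940106-41940375), averaged 6.94 ± 1.24 and 4.21 ± 0.904 CPM, 0.71 on the log2 scale (SE 0.212), and stood at 0.56 (edgeR adjusted p = 0.336) with replicates 3 and 4 only. It also lost the call without complete vehicle replicate 1 (0.56, edgeR adjusted p = 0.0969) or starved vehicle replicate 2 (0.58, adjusted p = 0.0804).

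INSIG2, which retains SCAP in the endoplasmic reticulum, had 4 peaks lower in complete medium and none higher, of 10 tested. The largest difference lay 10.6 kb upstream (chr2:118077744-118077950), at 0.541, 0.520, 0.720 and 0.730 CPM in complete vehicle and 3.92, 3.11, 6.01 and 3.55 CPM in starved vehicle. Complete minus starved was -2.55 on the log2 scale (SE 0.375, edgeR adjusted p = 1.54e-07), with no overlap. Peaks 9.52 kb and 2.59 kb upstream were lower by log2 fold changes of -0.73 and -1.31, and one 2.07 kb downstream by -1.04, the last not called with DESeq2 (adjusted p = 0.0504). The peaks 9.52 kb upstream and 2.07 kb downstream were not called with replicates 3 and 4 only (-0.58 and -0.73, edgeR adjusted p = 0.102 and 0.254), nor the one 2.59 kb upstream with replicates 1 and 2 only (-1.15, adjusted p = 0.0524). Without the vehicle libraries of conflicting label, the peaks 2.59 kb upstream and 2.07 kb downstream were -1.07 and -0.96 (edgeR adjusted p = 0.0564 and 0.058). These 4 peaks were chosen after their values were seen. INSIG1, its relative, had no called peak in 10.

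SCAP, the escort and sterol sensor of the SREBPs, had called peaks in both directions inside the gene. One (chr3:47416098-47416359) measured 6.81, 5.85, 9.05 and 6.86 CPM in complete vehicle and 2.77, 2.61, 3.61 and 4.91 CPM in starved vehicle, with no overlap (log2 fold change 1.02, SE 0.25, edgeR adjusted p = 0.0018). It lost the call without the vehicle libraries of conflicting label and with replicates 3 and 4 only (0.78, edgeR adjusted p = 0.117). The other (chr3:47443238-47443494) averaged 7.04 ± 1.16 and 11.1 ± 2.71 CPM, a difference of -0.56 on the log2 scale (SE 0.182), and -0.29 (edgeR adjusted p = 0.61) with replicates 3 and 4 only. Its call was lost without complete vehicle replicate 1 or 2 or starved vehicle replicate 1 or 3, at -0.48, -0.52, -0.42 and -0.50 (edgeR adjusted p = 0.087, 0.0596, 0.172 and 0.0527). STARD4, a cholesterol carrier gene, had no called peak in 7.

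Near the fatty acid genes, 11 of 113 peaks were higher (9.73%) and 7 lower (6.19%), against 7.93% and 9.91% of all peaks. ELOVL5 had the strongest of the falls among well-covered peaks, inside the gene (chr6:53325853-53326053). It measured 1.62, 2.60, 1.75 and 1.61 CPM in complete vehicle and 7.15, 9.08, 5.61 and 7.19 CPM in starved vehicle. The starved libraries were all more than 2-fold above the complete ones, and the log2 fold change was -1.99 (SE 0.25, edgeR adjusted p = 1.62e-09), -1.95 and -2.03 within the sets. Counting the promoter, 3 ELOVL5 peaks were lower, and 2 others inside the gene were higher, at 3.42 against 1.48 CPM and 2.03 against 0.878 CPM, chosen after their values were seen. The first of these lost its call without starved vehicle replicate 2 (0.97, edgeR adjusted p = 0.0603). The second lost it without complete vehicle replicate 3 or starved vehicle replicate 1, 2 or 4 (1.0 to 1.24, edgeR adjusted p = 0.0564 to 0.128). Neither was called within either set of replicates (edgeR adjusted p = 0.0703 to 0.27), and the second was also lost with DESeq2 (adjusted p = 0.0727), with the replicate set as a term and without the vehicle libraries of conflicting label.

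FASN, fatty acid synthase, had 4 higher peaks of 28 tested. The nearest to the gene, 1.08 kb from it (chr17:82077098-82077418), measured 7.78, 8.32, 7.41 and 7.88 CPM in complete vehicle and 1.96, 3.61, 6.01 and 6.55 CPM in starved vehicle. The groups were separate, but starved replicates 1 and 2 were far lower than 3 and 4. The log2 fold change was 0.83 (SE 0.248, edgeR adjusted p = 0.0126), 1.55 in replicates 1 and 2 and 0.22 in replicates 3 and 4 (adjusted p = 0.744), and DESeq2 gave an adjusted p of 0.0531. Without starved vehicle replicate 1 or 2 it was 0.54 or 0.73 and not called (edgeR adjusted p = 0.133 and 0.0659), and without starved vehicle replicate 4 it was 1.29. Another, 12.3 kb beyond the gene in CCDC57 (chr17:82110395-82110626), averaged 11.9 ± 0.665 and 8.17 ± 1.80 CPM, 0.61 on the log2 scale (SE 0.18), with 0.46 (edgeR adjusted p = 0.134) in replicates 1 and 2 and an adjusted p of 0.0528 with DESeq2. Without starved vehicle replicate 4 it was 0.40 (edgeR adjusted p = 0.184).

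ACACA encodes acetyl-CoA carboxylase 1, which makes malonyl-CoA. It had 2 lower peaks of 16 and none higher. One 43.4 kb upstream in TADA2A (chr17:37450137-37450426) measured 4.00, 2.47, 3.4 and 2.48 CPM in complete vehicle and 4.84, 5.59, 6.01 and 5.92 CPM in starved vehicle, without overlap (log2 fold change -0.80, SE 0.238, edgeR adjusted p = 0.0104). Within the sets it was -0.65 (edgeR adjusted p = 0.199) and -0.99 (adjusted p = 0.0627), and it was also lost without the vehicle libraries of conflicting label or without starved vehicle replicate 4 (-0.75, adjusted p = 0.0522). ELOVL6 had 2 lower peaks of 16, and SCD, the stearoyl-CoA desaturase gene, 1 higher of 16 at a level under 1 CPM.

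FADS1 and FADS2, the delta-5 and delta-6 desaturase genes, overlap on chromosome 11 and share peaks. FADS1 had 3 higher of 14 and FADS2 4 of 17, with none lower. A peak in MYRF, 29.9 kb from FADS1 (chr11:61769584-61769827), averaged 4.25 ± 0.476 and 2.51 ± 0.899 CPM, 0.88 on the log2 scale (SE 0.295, edgeR adjusted p = 0.0259). It was not called with DESeq2 (adjusted p = 0.107), nor within either set of replicates (edgeR adjusted p = 0.13 and 0.177). Nor was it called without complete vehicle replicate 1 or 4 (0.80 and 0.86, edgeR adjusted p = 0.0842 and 0.0507) or starved vehicle replicate 1 or 4 (0.75 and 0.70, adjusted p = 0.111 and 0.156), or without both vehicle libraries of conflicting label.

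Counts were also summed over all peaks within 50 kb of each gene, and the sums of 19687 protein-coding genes were tested in the same way. Sums differed little. In complete medium 5 of 31 members (16.1%) were higher, against 10.8% of all genes, and 3 (9.68%) lower, against 7.78%. With RLE size factors 4 and 3 members were called, against 8.86% and 11% of all genes. Member values ran from -0.37 to 0.26 on the log2 scale, with a median of 0.0565 against 0.0313 for all genes. For MVK the sums were 168, 163, 169 and 174 CPM in complete vehicle and 144, 141, 143 and 138 CPM in starved vehicle. The 2 groups lay well apart, a difference of 0.26 on the log2 scale (SE 0.059, edgeR adjusted p = 0.000824). SREBF1 gave 160, 143, 165 and 157 CPM against 124, 129, 145 and 138 CPM, with a slight overlap and a difference of 0.25 on the log2 scale (SE 0.0659, adjusted p = 0.00414). INSIG2 gave 75.4, 72.4, 74.0 and 77.4 CPM against 87.4, 93.6, 79.0 and 87.1 CPM, without overlap (-0.24, SE 0.0684, edgeR adjusted p = 0.00794).

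FADS2 was higher by 0.21 (edgeR adjusted p = 0.00764), FDFT1 by 0.19 (adjusted p = 0.0228) and FASN by 0.16 (adjusted p = 0.0498) on the log2 scale. CYP51A1, with 3 peaks, was lower with a log2 fold change of -0.37 (edgeR adjusted p = 0.0125), and ACACA with -0.24 (adjusted p = 0.0155). None of these 8 calls held with replicates 3 and 4 only. There 0 members were called in either direction, while 1.88% of all genes were called higher and 1.61% lower. Without the vehicle libraries of conflicting label only 1 was called, MVK. FASN lost its call in 27 of 37 alternative analyses, among them 21 of the 24 that left out 1 library. FADS2 lost it without complete vehicle replicate 3 or starved vehicle replicate 1 (0.17 and 0.20, edgeR adjusted p = 0.0956 and 0.052), and FDFT1 without complete vehicle replicate 1, 3 or 4 or starved vehicle replicate 1 or 2 (0.15 to 0.20, adjusted p = 0.0503 to 0.14). CYP51A1 lost it without complete vehicle replicate 3 or 4 or starved vehicle replicate 1 or 2 (-0.32 to -0.29, edgeR adjusted p = 0.0535 to 0.107), and ACACA without complete vehicle replicate 2 or 4 or starved vehicle replicate 1 or 4 (-0.23 to -0.18, adjusted p = 0.0563 to 0.107). The calls at MVK, SREBF1 and INSIG2 stood with any 1 library left out. That of SREBF1 was lost with DESeq2 (0.20, adjusted p = 0.0643) and with the older edgeR fit (0.24, adjusted p = 0.0606). SC5D, whose distal peak differed so much, had a sum of 179 ± 8.01 CPM in complete vehicle and 188 ± 14.7 CPM in the starved one (-0.10, edgeR adjusted p = 0.272).

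**Figure D4:**
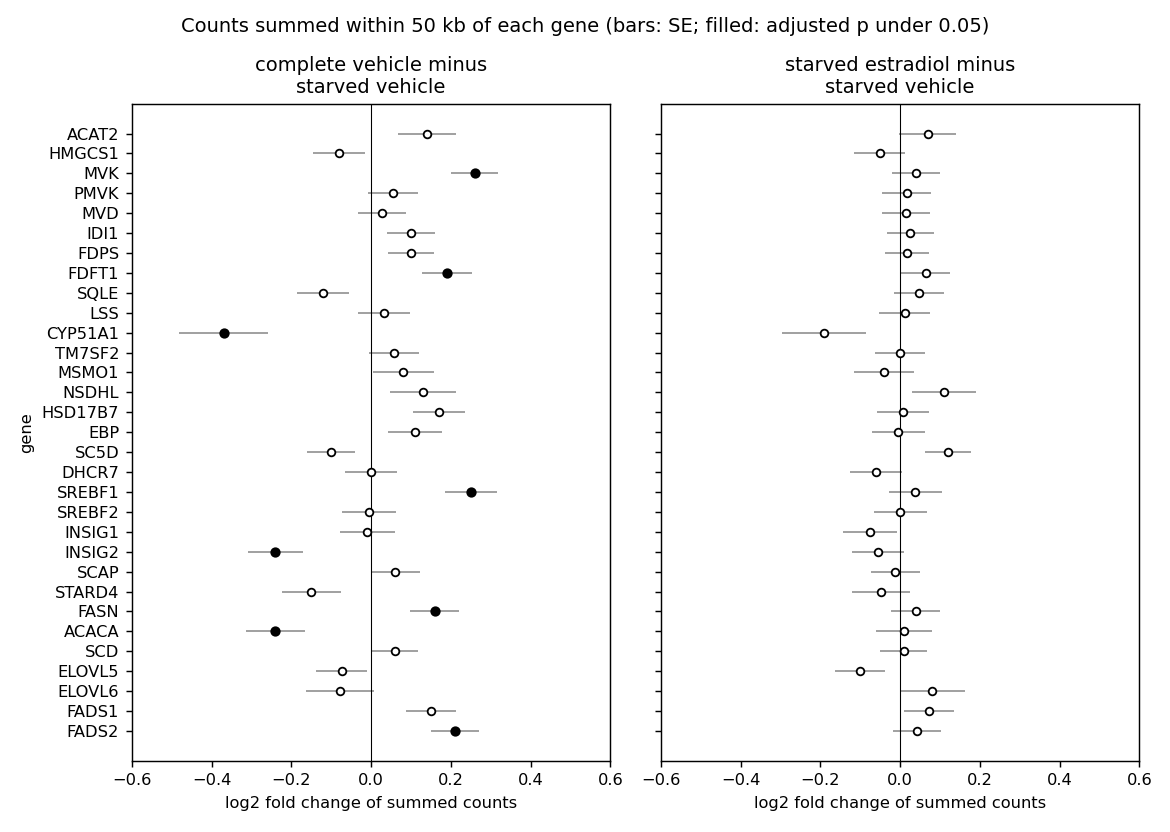
Log2 fold change of counts summed within 50 kb of each member gene, with SE, for complete vehicle minus starved vehicle (left) and starved estradiol minus starved vehicle (right), which share the starved vehicle libraries. Filled points passed an adjusted p under 0.05, 8 genes on the left between -0.37 and 0.26 and none on the right.

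Estradiol added to starved cells for 1 h changed 2 peaks near these genes. Of 411 tested, 1 rose (0.243%, against 0.813% of all peaks) and 1 fell (0.243%, against 0.0223%). The riser was the peak downstream of SC5D, at 7.63, 9.06, 9.18 and 7.59 CPM with estradiol, above all 4 starved vehicle libraries, the highest of which was 3.21 CPM. Estradiol minus vehicle was 1.76 on the log2 scale (SE 0.234, edgeR adjusted p = 6.26e-08), 2.08 in replicates 1 and 2 and 1.46 in replicates 3 and 4 and called in both. Against complete vehicle, the estradiol libraries at that peak differed by -0.032 (SE 0.17, edgeR adjusted p = 0.931).

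The peak that fell was the one inside ELOVL5, which measured 4.50, 4.16, 4.00 and 3.47 CPM with estradiol, below all 4 starved vehicle libraries and above all 4 complete vehicle libraries. The log2 fold change from starved vehicle was -0.90 (SE 0.206, edgeR adjusted p = 0.0064), and from complete vehicle 1.10 (SE 0.278, adjusted p = 0.00268). The latter was not called within either set of replicates (edgeR adjusted p = 0.0571 and 0.0557) or without the vehicle libraries of conflicting label (0.96, adjusted p = 0.0659). The fall from starved vehicle was not called with DESeq2 (adjusted p = 0.192), with the older edgeR fit, within either set of replicates (edgeR adjusted p = 0.171 and 0.451), or without starved vehicle replicate 2 (-0.78, adjusted p = 0.104). Without starved vehicle replicate 4, 2 list peaks rose with estradiol. The media and estradiol comparisons share the starved vehicle libraries, so values at the other peaks are given side by side only. At HMGCS1 (chr5:43309785-43310043) the log2 fold change was -1.54 for medium and -0.34 for estradiol (edgeR adjusted p = 0.756). At the SREBF2 intragenic peak these were -0.94 and -0.17, at SQLE -1.45 and -0.27, at the INSIG2 upstream peak -2.55 and -0.19, at MVK 1.05 and 0.20, and at SCAP 1.02 and 0.24.

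No member gene sum passed the test with estradiol (0 of 31, edgeR, and 0 called with DESeq2). In edgeR the shares of all genes were 0.96% higher, 0.0203% lower and 0.98% in either direction. At an unadjusted p under 0.05 in edgeR there was 1 (3.23%), against 4.91% of all genes. Member values ran from -0.19 to 0.12 on the log2 scale with a median of 0.0111. The SC5D sum was 219, 223, 197 and 197 CPM with estradiol, against 195, 203, 169 and 186 CPM with vehicle, a log2 fold change of 0.12. Of the 25 member promoter peaks, 0 passed the test with estradiol in edgeR, and 0 had an unadjusted p under 0.05, with differences of -0.16 to 0.15. Across the whole table, 0.184% of peaks over any RefSeq promoter window were higher with estradiol and 0.0% lower. The count of 0 therefore does not set member promoters apart.

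Starved cells given estradiol were also set against complete vehicle, which asks what estradiol left different between the media. Of 411 peaks, 21 (5.11%) were higher with estradiol in starved medium and 32 (7.79%) lower, against 9.39% and 7.24% of all peaks. At an unadjusted p under 0.05 there were 108 (26.3%), against 28.6% of all. The 21 became 13 without complete vehicle replicate 4, and the 32 became 21 without complete vehicle replicate 3 and 19 and 20 without starved estradiol replicates 1 and 2. At HMGCS1 estradiol libraries read 12.4, 12.9, 11.5 and 9.51 CPM, all above complete vehicle (log2 difference 1.2, SE 0.193, edgeR adjusted p = 1.85e-06). The peak upstream of INSIG2 read 2.13, 4.26, 3.15 and 3.47 CPM, also above all complete vehicle libraries (2.36, SE 0.374, edgeR adjusted p = 1.31e-06). The MVK peak read 3.5, 5.01, 4.59 and 3.34 CPM, below all complete vehicle libraries (-0.85, SE 0.212, edgeR adjusted p = 0.00238), and was not called with replicates 1 and 2 only (-0.77, adjusted p = 0.0564). This comparison shares the complete vehicle libraries with the media comparison. The ELOVL5 promoter was the 1 promoter peak called here, at 24.1 ± 1.11 against 18.4 ± 1.59 CPM (0.39, SE 0.126, edgeR adjusted p = 0.0239), a call lost without complete vehicle replicate 2 or 4 or starved estradiol replicate 2 or 3 (0.34 to 0.38, adjusted p = 0.0572 to 0.0864). It was also lost with the replicate set as a term (0.37, edgeR adjusted p = 0.059), with the older edgeR fit (adjusted p = 0.0559), without the vehicle libraries of conflicting label (adjusted p = 0.0892) and with replicates 3 and 4 only (adjusted p = 0.302). Among gene sums 3 members (9.68%) were higher, ACACA, SC5D and INSIG2, against 6.71% of all genes, and 3 (9.68%) lower, MVK, SREBF1 and FADS2, against 9.36%. Leaving out 1 library ended the INSIG2 call in 15 of 24 cases, FADS2 in 12, SREBF1 in 4 (complete vehicle replicate 1 or 3, starved estradiol replicate 1 or 2) and ACACA in 1 (complete vehicle replicate 2), with edgeR adjusted p up to 0.152, 0.251, 0.132 and 0.0779, and left MVK and SC5D called. With the replicate set as a term, the MVK and INSIG2 sums were not called (-0.17 and 0.20, edgeR adjusted p = 0.0602 and 0.0623). Without the vehicle libraries of conflicting label SC5D was the 1 of the 6 still called, and with replicates 3 and 4 only 0 were. RLE size factors gave 4 higher and 2 lower, and total counts 4 and 6.

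In complete medium, 1 h of fulvestrant, raloxifene or tamoxifen left no peak near these genes past the test. Each was 0 of 411 with edgeR, against 0.0% of all peaks for fulvestrant, 0.000638% for raloxifene and 0.0% for tamoxifen. At an unadjusted p under 0.05 there were 19, 16 and 15 peaks (4.62%, 3.89% and 3.65%, against 3.96%, 3.81% and 4.13% of all peaks), and DESeq2 also called 0. Gene sums gave 0 of 31 for each antagonist, against 0.0% of all genes. At an unadjusted p under 0.05 in edgeR there were also 0 for each. Of all genes, 2.3%, 1.96% and 1.99% passed that with fulvestrant, raloxifene and tamoxifen. The log2 fold changes of member sums lay between -0.12 and 0.10 with fulvestrant, -0.069 and 0.088 with raloxifene, and -0.02 and 0.18 with tamoxifen.

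The SC5D peak that estradiol raised had the smallest p of all list peaks for raloxifene. It read 6.41, 6.86, 5.12 and 3.55 CPM with raloxifene, 6.58, 5.18, 4.21 and 7.85 CPM with fulvestrant and 8.24, 6.46, 6.96 and 7.98 CPM with tamoxifen, against 7.68, 6.76, 9.98 and 10.2 CPM in vehicle. Libraries of all 3 overlapped the vehicle range. The vehicle libraries of conflicting label were the high ones, at 9.98 and 10.2 CPM, and the other vehicle libraries read 7.68 and 6.76 CPM. The log2 fold change was -0.63 with raloxifene (95% interval -1.0 to -0.26, edgeR unadjusted p = 0.00132, adjusted p = 1). With fulvestrant it was -0.62 (-1.02 to -0.21, edgeR unadjusted p = 0.0036, adjusted p = 1), and with tamoxifen -0.21 (-0.57 to 0.15, adjusted p = 1). The 3 share their vehicle libraries, so their likeness is no separate support. These differences rest in part on the vehicle libraries of conflicting label, and values without those libraries are not given here.

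For fulvestrant the smallest p among list peaks was at a site 27.9 kb downstream of SREBF1, in RAI1 (chr17:17783244-17783563), at 7.68, 6.78, 5.31 and 6.28 CPM against 11.7, 8.97, 11.4 and 7.88 CPM in vehicle. The groups did not overlap, with a log2 fold change of -0.58 (95% interval -0.95 to -0.21, edgeR adjusted p = 1). For tamoxifen it was a sparse peak 17.8 kb downstream of IDI1, in IDI2 (chr10:1021178-1021547), at 0, 0.945, 0.682 and 1.17 CPM against 1.08, 2.47, 1.03 and 2.92 CPM, with overlap (-1.28, interval -2.18 to -0.38, edgeR adjusted p = 1). Peaks that differed between media gave varied values with the antagonists, none past the test. The FASN peak 1.08 kb from the gene differed by -0.68 with raloxifene (-1.13 to -0.22) and -0.51 with fulvestrant (-0.99 to -0.02), and the higher SCAP peak by 0.48 with tamoxifen (0.10 to 0.87), each with an edgeR adjusted p of 1. At HMGCS1 the log2 fold changes were 0.11 (-0.37 to 0.60), 0.055 (-0.40 to 0.51) and -0.028 (-0.50 to 0.45) for fulvestrant, raloxifene and tamoxifen. At the ELOVL5 intragenic peak they were 0.25 (-0.44 to 0.93), -0.07 (-0.74 to 0.60) and -0.52 (-1.27 to 0.22).

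The 3 pairs of antagonists, steroidal fulvestrant against each non-steroidal compound and these against each other, were compared at the same dose and time. None differed at any list peak (0 of 411 in each pair, edgeR and DESeq2), against 0.000638% of all peaks for fulvestrant and raloxifene and 0.0% for the other pairs. At an unadjusted p under 0.05 there were 34 peaks between fulvestrant and raloxifene, 24 between fulvestrant and tamoxifen and 17 between raloxifene and tamoxifen, against 5.16%, 5.27% and 3.92% of all peaks, or 8.27%, 5.84% and 4.14% of the list. The smallest p between fulvestrant and raloxifene lay at a peak 27 kb upstream of SC5D (chr11:121265644-121265890), with 5.12, 3.95, 3.30 and 12.6 CPM against 1.24, 2.43, 1.63 and 2.87 CPM (log2 fold change 1.18, 95% interval 0.57 to 1.79, edgeR adjusted p = 0.964). The groups were separate, and the highest value came from fulvestrant replicate 4, the shallowest library.

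For tamoxifen against either other compound the smallest p lay 36.9 kb upstream of STARD4 (chr5:111549269-111549518). Tamoxifen read 2.62, 3.47, 4.09 and 2.77 CPM, raloxifene 4.55, 6.42, 5.23 and 5.19 CPM, and fulvestrant 5.76, 7.64, 4.76 and 0 CPM. Tamoxifen was below all raloxifene libraries and below all fulvestrant libraries but replicate 4. The log2 fold change was 0.90 for fulvestrant minus tamoxifen (0.40 to 1.40, edgeR adjusted p = 0.934) and 0.74 for raloxifene minus tamoxifen (0.26 to 1.22, adjusted p = 1). At the SC5D peak raised by estradiol, fulvestrant minus raloxifene was 0.0098 (-0.43 to 0.45), fulvestrant minus tamoxifen -0.41 (-0.83 to 0.014) and raloxifene minus tamoxifen -0.42 (-0.81 to -0.029, edgeR adjusted p = 1). These intervals leave room for differences of some size, so alike action was not shown. Gene sums of members gave 0 of 31 for each pair in edgeR, against 0.0% of all genes, and 0 with DESeq2. At an unadjusted p under 0.05 edgeR gave 3, 4 and 0 in the same order. These were 9.68%, 12.9% and 0.0% of members, against 9.82%, 6.61% and 1.39% of all genes.

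A list of 23 further lipid genes, outside the 31 and chosen by function, was read in the same way for medium. Of 412 tested peaks near them, 37 (8.98%) were higher and 36 (8.74%) lower in complete vehicle, against 7.93% and 9.91% of all peaks. Among 6 glycerolipid synthesis genes, 22 of 108 peaks (20.4%) were higher and 2 (1.85%) lower. Gene sums were higher for GPAM, which adds the first acyl chain to glycerol phosphate (53.8 ± 2.51 against 42.0 ± 4.52 CPM, log2 fold change 0.38, SE 0.081, edgeR adjusted p = 0.000334), for the phosphatidate phosphatase gene LPIN1 (0.33), AGPAT2 (0.23) and DGAT1 (0.19). Among 7 genes of sterol transport, storage and later steps, 7 of 137 peaks (5.11%) were higher and 19 (13.9%) lower, and the sums of LIPA (lysosomal acid lipase), NPC1 and the HDL receptor gene SCARB1 were lower with log2 fold changes of -0.21, -0.19 and -0.17, while NPC2 was higher by 0.22. Of 5 genes that supply acetyl-CoA, NADPH and acyl-CoA, the malic enzyme gene ME1 (-0.39, SE 0.0843, edgeR adjusted p = 0.000397) and ACSL3 (-0.18) were lower. Of 5 liver X receptors and targets, ABCG1 was higher by 0.19 and MYLIP lower, at -0.21. In all, 6 sums were higher and 7 lower of 23, not all of them named here, against 10.8% and 7.78% of all genes. GPAM, LPIN1 and ME1 kept their calls with any 1 library left out, and the other 10 lost theirs in 1 to 17 of 24 such cases. With replicates 3 and 4 only, GPAM, LPIN1 and ME1 were not called either (edgeR adjusted p = 0.258, 0.414 and 0.266).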

How the data were processed

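Counts of reads or fragments per peak were used as the authors deposited them, unnormalized whole numbers in 1 peak set for all 24 libraries. Per the submitters' processing notes, cutadapt 1.8.1, Bowtie2 2.4.4 and SAMtools 1.9 were used on hg38. How peaks were called and counted, and how duplicates and the Tn5 shift were handled, is not given in the sources used here. Peaks are 200 to 958 bp wide, and whether starts count from 0 or 1 is not stated. Without knowledge of duplicates, counts may include PCR copies.

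All libraries entered 1 edgeR 4.0.16 fit (R 4.3.3, limma 3.58.1) of 6 group means, after filterByExpr (minimum count 10, minimum total 15) and TMM scaling, with two-sided quasi-likelihood tests (robust=TRUE, legacy=FALSE) adjusted by Benjamini-Hochberg over all 156745 peaks, threshold 0.05. The SE is the log2 fold change over the root of F, and fits weigh libraries by depth. CPM uses TMM-scaled library sizes. Sums per gene used every peak within 50 kb of each protein-coding gene of a RefSeq table, the peak table's scaling and the same test, so genes share peaks, and a peak shared by members is counted once. DESeq2 1.42.0, the older edgeR fit and other scalings, filters, windows and sets of libraries were alternatives. The pipeline was tested on simulated data. No 2 libraries of a group were alike within sampling noise (36 pairs, chi-square over degrees of freedom 1.72 to 4.31), so each counts once.

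Peaks given with values are those over member promoters, then up to 10 rises and 10 falls by log2 fold change in the media and estradiol comparisons, taken from called peaks of above-median abundance with no overlap between the 2 groups, and the list peak with the smallest p for each antagonist and pair. Others are marked. The members, lists and rules were chosen with earlier results of these data known. Promoter sequences are RefSeq's (GRCh38.p14), and sequences of distal peaks were not used here.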

Additional observations from a re-analysis of the deposited data

Results flagged for a closer look

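Within groups of 4, single libraries stood far from the other 3 in 9 of 156 groups examined (gap to the nearest library, over the group's range, above Dixon's 95% critical value, which chance passes in about 1 of 20 groups). In fulvestrant replicate 4, the shallowest library, the second MVK peak (chr12:109581977-109582198) read 1.57 CPM against 4.68 to 5.31, the PMVK peak 7.85 against 17.9 to 19.8, the peak inside FDFT1 0 against 2.47 to 2.93, the SREBF1 gene sum 86.4 against 144 to 155 and the ACACA gene sum 29.8 against 57.5 to 62.1. Its TMM factor was 1.56. Sums outside this check were low in it too, as at HMGCS1 (55.0 against 120 to 126 CPM) and SQLE (55.0 against 107 to 116). PMVK (203 against 374 to 416) and MVD (113 against 165 to 171) were others. The shortfall was smaller at FDPS (185 against 211 to 217). Such values lower the fulvestrant means of these sums, so low readings were not confined to the flagged items. Over all genes, how many were low or high was not counted. In starved estradiol, the SCAP peak read 3.21 CPM in replicate 4 against 4.38 to 4.59, and the SREBF2 peak in CENPM 5.12 in replicate 2 against 4.75 to 4.76. The ELOVL5 intragenic peak read 2.60 CPM in complete vehicle replicate 2 against 1.61 to 1.75, still below every starved library, and the ELOVL5 promoter 16.5 CPM in tamoxifen replicate 3 against 22.6 to 23.5.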

How the results depend on the processing

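No result reversed. Of 2389 values of the 64 called peak and gene-sum differences under alternatives, 2057 stayed on their side of the threshold and 332 lost the call. The peaks at SC5D (medium and estradiol), ELOVL5 (medium), HMGCS1 and SREBF2 (inside the gene) were called in all 38 alternatives. Peaks higher in complete than starved vehicle (43) numbered 21 with DESeq2, 24 without complete vehicle replicates 3 and 4, 8 with replicates 3 and 4 only, 14 within 10 kb, and 29 to 50 when single libraries were left out. Peaks lower (23) numbered 11, 7 and 15 in the last 3 of these settings and 18 to 24. Calls over all peaks fell as well with replicates 3 and 4 only, to 2.67% higher and 3.9% lower. With estradiol, the 1 rise became 2 with the older edgeR fit, 0 within 10 kb and 1 to 2 without single libraries, and the 1 fall became 0 with DESeq2, the older fit or either set of replicates, and 0 to 1. Starved estradiol against complete vehicle gave 12, 7 and 12 higher (21) without the conflicting libraries, with replicates 3 and 4 and within 10 kb, and 13 to 25 without single libraries. The 32 lower became 16 with DESeq2, 13, 19 with replicates 1 and 2, 8 with replicates 3 and 4, 10 within 10 kb, and 19 to 35. Lower calls over all peaks fell as well, to 4.54% with DESeq2, 4.46% with replicates 1 and 2 and 2.5% with replicates 3 and 4. Between antagonists 4 peaks were called with replicates 3 and 4 only and 0 otherwise. Higher gene sums (5) became 3 without a count filter, 2 with DESeq2, 1 with the older fit, 1 without the conflicting libraries, 0 with replicates 3 and 4, 1 within 10 kb, and 2 to 7 without single libraries. Lower sums (3) became 0 above the median abundance, 1 with the older fit, 0 without the conflicting libraries, 5 and 0 within the sets, 0 within 10 kb, and 1 to 3. The cause was not tested, beyond fewer peaks or libraries. Each antagonist and estradiol gene sums stayed at 0. With the replicate block, estradiol rises became 2, media counts 49 and 26 and no other count moved by over 1.5 times. Whether the numbers pair the libraries was not settled. Correlations of deviations for 60 same-number pairs ran from -0.128 to 0.126, 8 of them over 0.1. Their median was 0.0526, against -0.0313 for pairs of different number. Of 24 libraries, 16 correlated best with their own number, so the main fit, without a replicate block, may leave some pairing out. Loess scaling of gene sums was not run. Depth limits sparse peaks most, since fulvestrant replicate 4 had no count in 36.1% of all peaks.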
